A study of Mus musculus with 81 samples.

Results

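MERVL is an endogenous retrovirus of the mouse, and MT2_Mm is the long terminal repeat (LTR) found at each end of it. The loci described here are the annotated LTR retrotransposon loci whose repeat name (species) begins with MERVL or equals MT2_Mm. They numbered 9106 of the 970384 LTR loci in each RNA table (0.938%), and fell into 3 of 680 species: 3896 MERVL_2A-int loci, 2641 MT2_Mm loci and 2569 MERVL-int loci, where "int" marks the internal, protein-coding stretch. All 4 RNA tables (F1 and F3, germline and somatic) list the same loci.

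All groups were OG2 mice, which carry EGFP under the Pou5f1 (Oct4) promoter and distal enhancer, so that fetal germ cells are green. F0 dams drank 50 nM tributyltin (TBT, an organotin compound) or the DMSO vehicle from before mating, through pregnancy and through lactation until weaning. F1 fetuses were thus exposed in utero. F3 fetuses had no exposure of their own, and descended by matings within each exposure line from F1 animals that these dams had also nursed. At E18.5, fetal testes were sorted into P4 and P5, which are EGFP-positive germline cells divided by side scatter, and P6, the EGFP-negative somatic cells. RNA libraries numbered 5 DMSO and 7 TBT in F1 P4, 4 and 7 in F1 P5, 5 and 7 in F1 P6, and 4 and 5 in each F3 population. Captured methylated DNA (MBD-seq) was measured in P6 only, in 3 DMSO and 4 TBT libraries of F1 and in 5 and 7 of F3. The labels do not say which libraries came from separate litters, so the p-values measure the spread between these libraries. The sort rests on one transgene, and these are bulk samples, in which fewer cells of a type and less RNA per cell cannot be told apart.

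MERVL belongs to the ERVL class and is known for a short burst of transcription in the cleaving embryo, when the embryonic genome is first switched on. MT2_Mm drives that burst, both of the provirus and of host genes that begin within it, and the transcription factor DUX binds it. The internal part encodes gag and pol but no envelope protein. In fetal male germ cells, LTR retrotransposons as a class are being silenced again by DNA methylation and piRNA-guided mechanisms.

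The sequences below carry the results that follow: the LTR of the element most read in somatic cells, the MT2_Mm locus most read in germline cells, an MT2_Mm locus inside Pou5f1, the most-read locus outside genes, a solo LTR that was higher in P5 than in P4, and the first LTRs of the outside-gene elements most read in F3 P6 and in F1 P5. They are GRCm38 (mm10) sequence read 5′ to 3′ in the orientation of the repeat, from 198 to 270 bases each, and capitals mark the match to GATTNAATC, a palindrome of the letters GATT and AATC around any base.
LTR of the Gpc3-intron element, chrX:52355490-52355689, plus strand: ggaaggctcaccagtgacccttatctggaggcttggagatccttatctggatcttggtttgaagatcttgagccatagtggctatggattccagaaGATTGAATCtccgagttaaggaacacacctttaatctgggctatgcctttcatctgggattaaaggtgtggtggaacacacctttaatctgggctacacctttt
MT2_Mm in an intron of Cct8, chr16:87484965-87485164, plus strand: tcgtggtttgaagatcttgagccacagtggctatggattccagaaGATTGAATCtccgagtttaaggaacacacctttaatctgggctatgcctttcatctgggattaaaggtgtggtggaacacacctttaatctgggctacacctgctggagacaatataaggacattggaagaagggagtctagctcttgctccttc
MT2_Mm in an intron of Pou5f1, chr17:35508551-35508748, minus strand: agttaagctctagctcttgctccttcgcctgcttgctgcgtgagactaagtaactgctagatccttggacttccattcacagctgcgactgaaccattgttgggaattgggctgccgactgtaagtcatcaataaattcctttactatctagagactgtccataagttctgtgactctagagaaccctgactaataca
most-read MT2_Mm outside genes, chr2:157528080-157528349, plus strand: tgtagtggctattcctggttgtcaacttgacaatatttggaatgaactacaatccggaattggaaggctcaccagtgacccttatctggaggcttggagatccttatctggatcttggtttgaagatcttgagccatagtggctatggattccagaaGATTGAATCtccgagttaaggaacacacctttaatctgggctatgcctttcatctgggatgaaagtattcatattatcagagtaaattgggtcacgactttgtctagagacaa
solo LTR outside genes, higher in P5, chr4:75830561-75830760, plus strand: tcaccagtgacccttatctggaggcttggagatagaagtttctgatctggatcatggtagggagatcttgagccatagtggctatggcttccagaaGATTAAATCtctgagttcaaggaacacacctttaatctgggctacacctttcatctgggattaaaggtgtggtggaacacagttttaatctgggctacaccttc
first LTR of the outside-gene element most read in F3 P6, chr1:36031538-36031737, plus strand: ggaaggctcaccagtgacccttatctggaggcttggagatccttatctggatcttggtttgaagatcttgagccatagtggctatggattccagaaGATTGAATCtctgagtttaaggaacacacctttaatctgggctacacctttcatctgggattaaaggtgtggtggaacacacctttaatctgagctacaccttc
first LTR of the outside-gene element most read in F1 P5, chr6:37973817-37974016, plus strand: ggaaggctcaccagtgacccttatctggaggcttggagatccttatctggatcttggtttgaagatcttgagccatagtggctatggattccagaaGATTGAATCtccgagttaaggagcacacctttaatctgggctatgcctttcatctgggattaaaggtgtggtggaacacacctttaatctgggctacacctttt

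The GATTNAATC letters, which read the same on both strands, occurred in 2351 of 2641 MT2_Mm loci (89.0%). They were found in 99.1% of the 1184 MT2_Mm loci that belong to full-length elements, in 93.5% of the 890 solo LTRs and in 33.5% of the 322 MT2_Mm loci shorter than 400 bases. Among LTRs of 400 to 600 bases the share was 96.8% of 2315 MT2_Mm loci, against 3.88% of 7584 loci of the older relatives (MT2A, MT2B, MT2B1, MT2B2 and MT2C_Mm) and 0.935% of 120801 other LTR loci. None of 1247 loci of IAPLTR1_Mm, the LTR of IAP elements, held it. With a T required before and an A after it, no MT2_Mm locus matched, whereas 0.541% of the older relatives did. The Pou5f1-intron locus is a fragment of 198 bases from the downstream part of the LTR and had no match, and the solo LTR on chromosome 4 read GATTAAATC, where the other matches shown read GATTGAATC.

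Most of the loci are pieces of elements rather than elements. The median lengths were 282 bases for MERVL_2A-int, 492 for MT2_Mm and 387 for MERVL-int and the longest loci 5667, 675 and 5421 bases. Loci no more than 100 bases apart were joined, and 2398 loci formed 591 full-length elements (2 LTRs around an internal part, median span 6431 bases). Another 890 loci were 889 solo LTRs, the single LTR left when an element recombines away, and 5818 were parts of 4117 partial elements. All 591 full-length elements held an open reading frame long enough to give their direction, with a median of 1182 codons.

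By position, 366 loci touched an annotated exon, 2616 lay in introns and 6124 lay outside genes (67.3%, against 64.5% of all LTR loci). Of the 2154 intronic loci whose direction could be read, 914 (42.4%) ran in the direction of their gene. The share was 46.0% for pieces of full-length elements and 32.7% for solo LTRs (73 of 223). The deposited counts carry no strand, so transcripts of the gene and of the element could not be separated.

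The copies resemble each other so closely that a short read often fits many of them. Of all 75-base words in the LTRs of full-length elements, 3.86% occurred once among the member loci, as did 5.88% of those in their internal parts. The share was 30.7% for solo LTRs, 17.3% for MERVL-int as a whole and 92.9% for MERVL_2A-int. The 2 LTRs of the Gpc3-intron element, 492 bases each, had 0 differences, and the first 217 of the 270 bases of the most-read locus outside genes were identical to them. How reads that fit several copies were assigned is not given in the sources used here, so values of single full-length copies and solo LTRs are less certain than the totals of a species.

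Counts in introns were often shared between neighbouring loci. Among intronic members with at least 20 reads, 43.8% of 1426 loci in the F1 germline table had exactly the same reads as the next LTR locus in every library, and the shares were 52.2%, 44.9% and 47.3% in F1 somatic, F3 germline and F3 somatic cells. No member locus outside genes did so, of 230, 82, 242 and 43 with as many reads. The other LTR loci showed the same split, with 35.2% to 44.8% in introns and 0.305% to 3.30% outside genes.

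Full-length elements gave a direct view of this, because each holds an internal piece of about 5.3 kb and another of 38 bases. In introns the 2 pieces had nearly the same reads: of the reads at the long piece, 0.666%, 0.574%, 1.39% and 1.21% were beyond those at the 38-base piece in the 4 tables (F1 germline, F1 somatic, F3 germline, F3 somatic). Outside genes the same shares were 97.5%, 97.2%, 99.7% and 98.4%. An intronic piece of 38 bases thus had about as many reads as one of 5.3 kb, and the loci outside genes were analysed by themselves beside the totals.

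**Figure D1:**
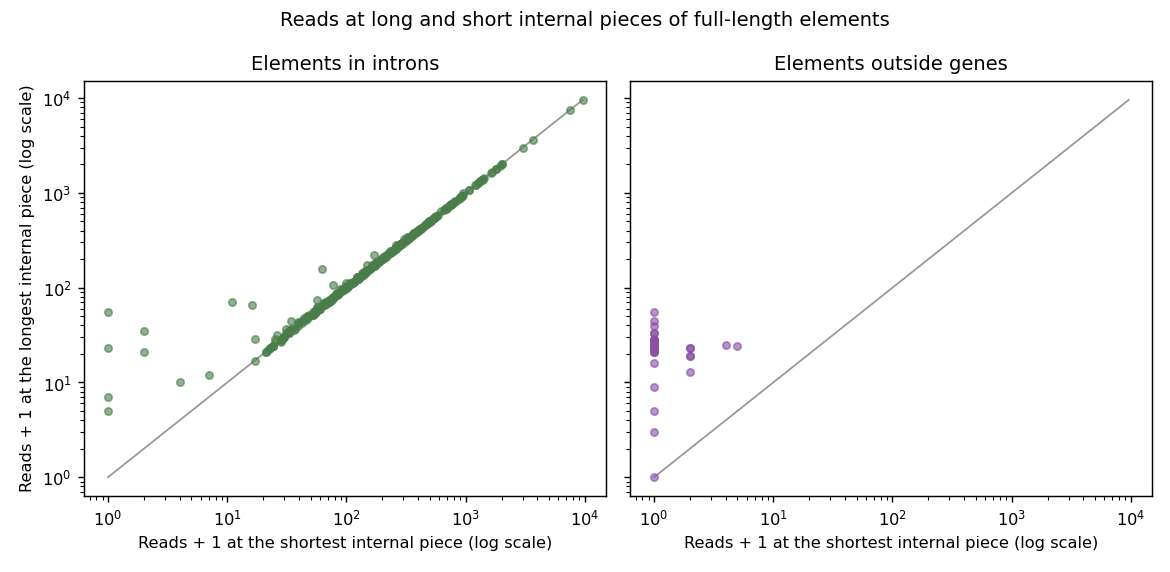
Reads plus 1 at the shortest (x) and the longest (y) internal piece of each full-length MERVL element, on log axes. Intronic elements and elements outside genes are in separate panels and colours, with the 4 tables pooled. Intronic elements lie along the diagonal, with equal reads in 51 of 96 elements of the F1 germline table. All but 1 of the elements outside genes lie above it, with equal reads in 0 of 9 elements of that table and in 1 of 14 of the F3 germline table, which had no read at either piece.

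Library depth at all LTR loci ranged from 2824806 to 6304053 reads in F1 and from 246520 to 8161548 in F3, and 4 F3 germline libraries stood apart with under 2000000 reads (P4 TBT 5 and 9, P5 TBT 5 and DMSO 2). The sorted cells were checked by 9 germ cell genes that hold an LTR locus. Their summed level averaged 16404, 11220 and 34.7 CPM (reads at a locus per 1000000 reads at all LTR loci, after scaling) in F1 P4, P5 and P6, and 11512, 7778 and 65.8 CPM in F3. It fell as low as 1280 CPM in F3 P4 and 142 CPM in F3 P5. In F3 P6 it was 122 ± 119.6 CPM (14.4 to 242) in the 4 DMSO libraries and 20.8 ± 2.11 (17.4 to 22.8) in the 5 TBT libraries. The 2 Sertoli cell genes averaged 20.9, 35.8 and 758 CPM in F1 and 7.81, 16.6 and 804 CPM in F3. Reads outside genes made up a median of 2.19%, 5.29% and 1.496% of all reads in F1 P4, P5 and P6 and 3.22%, 11.2% and 1.34% in F3, with 6.79% and 6.95% in the F1 P6 libraries TBT 7 and TBT 8 against at most 1.82% in the other 10.

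The member loci held medians of 1.13%, 1.08% and 0.931% of LTR reads in F1 P4, P5 and P6 and of 1.05%, 0.953% and 0.957% in F3. Single libraries ranged from 0.890% to 1.21% in F1, and more widely in the F3 germline, from 0.543% to 1.14% in P4 and from 0.686% to 1.14% in P5. Nearly all of it lay in genes: loci outside genes took 1.68%, 3.70% and 3.42% of the member reads in F1 P4, P5 and P6 and 2.11%, 5.86% and 2.08% in F3, although they are 67.3% of the loci. More members had a read in P5 (4257 in F1 and 3863 in F3) than in P4 (2419 and 2202) or P6 (3320 and 2348). Few loci carried the signal, since 83 loci held 50% of the member reads in F1 P4, 125 in P5 and 156 in P6.

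The totals of the 3 species were of the same order in germline and somatic cells. MERVL-int totals were 3210 ± 239 CPM (SD, n = 12) in F1 P4, 2697 ± 242 (n = 11) in P5 and 2514 ± 79.2 (n = 12) in P6. MERVL_2A-int totals were 5493 ± 293, 4839 ± 388 and 4173 ± 105 CPM in the same order, and MT2_Mm totals 3377 ± 259, 2808 ± 263 and 2631 ± 51.9 CPM. P6 was normalised in a table of its own, so its levels stand beside those of the germline without a test. In F3 the germline totals spread widely, with MERVL-int at 2668 ± 1068 CPM in P4, 2269 ± 1062 in P5 and 2609 ± 53.8 in P6 (n = 9 each). The low-depth libraries lay lowest, at 628 and 1022 CPM for P4 TBT 5 and 9, 269 for P5 TBT 5 and 981 for P5 DMSO 2.

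Outside genes the order was different. MERVL-int outside genes averaged 15.02 CPM in F1 P4, 78.2 in P5 and 65.8 in P6, and 16.7, 133 and 20.9 CPM in F3. MERVL_2A-int averaged 43.95, 154 and 155 CPM in F1 and 83.6, 301.5 and 94.0 in F3, and MT2_Mm 143, 153 and 110 CPM in F1 and 159, 240 and 84.7 in F3. The F1 P6 averages were raised by TBT 7 and TBT 8, which had 458 and 414 CPM of MERVL_2A-int against 64.9 to 127 in the other 10 libraries, and the F1 P6 medians were 30.1, 97.8 and 90.6 CPM for MERVL-int, MERVL_2A-int and MT2_Mm. In each generation the averages of both internal species were lower in P4 than in P5, whereas those of MT2_Mm lay closer together. The F3 averages of the internal species in P4 and P6 differed by less than the spread between the P4 libraries.

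One MT2_Mm locus of 270 bases on chromosome 2, printed above (chr2:157528080-157528349), held 54.7%, 18.1% and 22.2% of all member reads outside genes in F1 P4, P5 and P6 and 47.5%, 12.5% and 34.3% in F3. Its level was 110 ± 9.62 CPM in F1 P4, 68.6 ± 7.06 in P5 and 71.2 ± 9.52 in P6, and 110 ± 40.3, 67.5 ± 40.3 and 69.2 ± 4.47 CPM in F3. In F3 P6 the outside-gene member with the next most reads, a MERVL_2A-int locus at chr7:71709618-71710107, averaged 12.4 CPM. MT2_Mm is therefore given below with and without the chromosome 2 locus.

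Per length, MERVL-int outside genes lay below LTR loci as a whole. It averaged 0.00546 CPM per kb in F1 P4, 0.0285 in P5 and 0.0239 in P6, over 2749 kb. MERVL_2A-int averaged 0.0317, 0.111 and 0.111 CPM per kb, and MT2_Mm 0.194, 0.207 and 0.149 with its most-read locus and 0.0449, 0.114 and 0.0522 without it. Over all LTR loci outside genes the level was 0.106, 0.249 and 0.106 CPM per kb, and over the older ERVL relatives 0.143, 0.312 and 0.105. MERVL-int lay below both in every F1 population, while MT2_Mm with its most-read locus lay above all LTR loci in P4 and P6. In F3 P4, P5 and P6, MERVL-int averaged 0.00606, 0.0483 and 0.00760 CPM per kb, MERVL_2A-int 0.0602, 0.217 and 0.0677, MT2_Mm 0.216, 0.325 and 0.115 with that locus and 0.0669, 0.233 and 0.0210 without it, and all LTR loci 0.242, 0.566 and 0.0624. TBT 7 and TBT 8 raised the P6 averages here too: the P6 medians were 0.0109 for MERVL-int, 0.0705 for MERVL_2A-int, 0.0248 for MT2_Mm without its most-read locus, 0.0677 for all LTR loci and 0.0572 for the older relatives. IAPEz-int, the internal part of the IAP elements, lay at 0.00186, 0.0285 and 0.0487 CPM per kb, with a P6 median of 0.0427. Of the 75-base words of MERVL-int, 17.3% occurred once among the member loci, beside 92.9% for MERVL_2A-int and 16.2% for MT2_Mm. The part of this in the levels per kb was not tested.

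Solo LTRs outside genes were read more per kb than full-length elements in all 6 populations. Solo LTRs averaged 0.105, 0.216 and 0.0848 CPM per kb in F1 P4, P5 and P6 and 0.147, 0.436 and 0.0330 in F3. Full-length elements averaged 0.00176, 0.0139 and 0.0136 CPM per kb in F1 and 0.00267, 0.0295 and 0.00748 in F3. In F1 P6 the medians were 0.0375 for solo LTRs and 0.00722 for full-length elements. Full-length elements were also the most alike in sequence, with the fewest 75-base words found once. The part of that in these values was not tested.

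**Figure D2:**
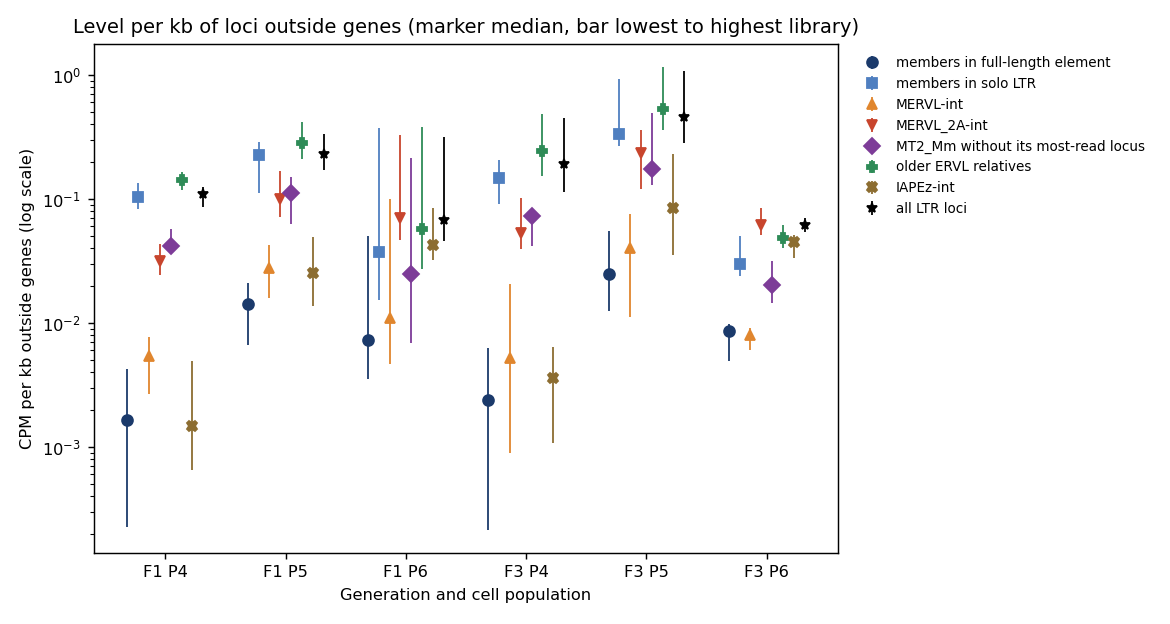
Reads outside genes in CPM per kb (log axis) for the MERVL and MT2_Mm sets and for all LTR loci, the older ERVL relatives and IAPEz-int, by population, where the marker is the median library and the bar runs from the lowest to the highest library. P5 lies above P4 in both generations for the sets drawn, and MT2_Mm is drawn without its most-read locus.

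Of the 341 full-length elements outside genes, 65 had a read in any F1 P4 library, 253 in P5 and 176 in P6, and 50, 230 and 135 in F3. Their reads over all libraries came to 200, 1732 and 1173 in F1 and 164, 1797 and 771 in F3. The most-read one had 11 reads over 12 libraries in F1 P4 (chr5:122383278-122389751), 36 over 11 in F1 P5 (chr6:37973756-37980163) and 62 over 9 in F3 P5 (chrX:67491622-67498013). The element at chr1:36031477-36037913, whose first LTR is printed above, led in F3 P6 with 58 reads and shared the first place in F1 P6, where it and the element at chr3:70836521-70842493 had 50 reads each. The reads were spread over many copies, and the 5 most-read elements held 9.58% of the reads in F1 P5 and 33.5% in F3 P4.

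Most of the loci with the most reads lay in genes. The MT2_Mm fragment in an intron of Cct8, a subunit of the chaperonin that folds actin and tubulin (chr16:87484965-87485335, 371 bases), ranked first in every germline population, with 515 ± 101 CPM in F1 P4, 342 ± 85.7 in F1 P5, 683 ± 183 in F3 P4 and 371 ± 156 in F3 P5. In P6 it averaged 80.2 CPM in DMSO and 87.0 in TBT libraries of F1. A MERVL-int piece in an intron of Park7, which encodes the redox protein DJ-1 (chr4:150904431-150905087), came second in all 4 with 374, 258, 581 and 321 CPM. Both lie in introns, where unspliced RNA of the gene and RNA of the repeat cannot be told apart.

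The MT2_Mm fragment in an intron of Pou5f1, the pluripotency and germ cell factor whose promoter drives the EGFP of the sort (chr17:35508551-35508748), was read in germline cells and hardly in somatic cells. It averaged 81.7 CPM in DMSO and 91.4 in TBT libraries of F1 P4, 52.6 and 67.8 in P5, and 0.104 and 0.574 in P6. In F3 P4 the 4 DMSO libraries had 322, 417, 191 and 388 CPM and the 5 TBT libraries 40.6, 169, 303, 334 and 34.7. The groups overlapped, and the lowest values were those of the low-depth libraries TBT 5 and TBT 9.

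Somatic cells were led by the full-length element in an intron of Gpc3, a cell-surface proteoglycan of growing tissues (chrX:52355429-52361825). All 4 of its pieces had the same 7526 reads over the 12 F1 P6 libraries, or 187 ± 23.8 CPM each, and 198 ± 30.0 CPM each in F3 P6, against means of at most 3.80 CPM in any germline group. Next came a MERVL_2A-int locus in an exon of B230354K17Rik (chr17:45436602-45440015, 3414 bases), with 112 CPM in F1 P6 and 162 in F3 P6, which was also among the top 5 in F1 P5 at 80.7 CPM. Of the top 5 in F1 P4, 3 were neighbouring MERVL_2A-int pieces in 1 intron of Tcfl5, a transcription factor gene active in the testis, with 115, 114 and 113 CPM.

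**Figure D3:**
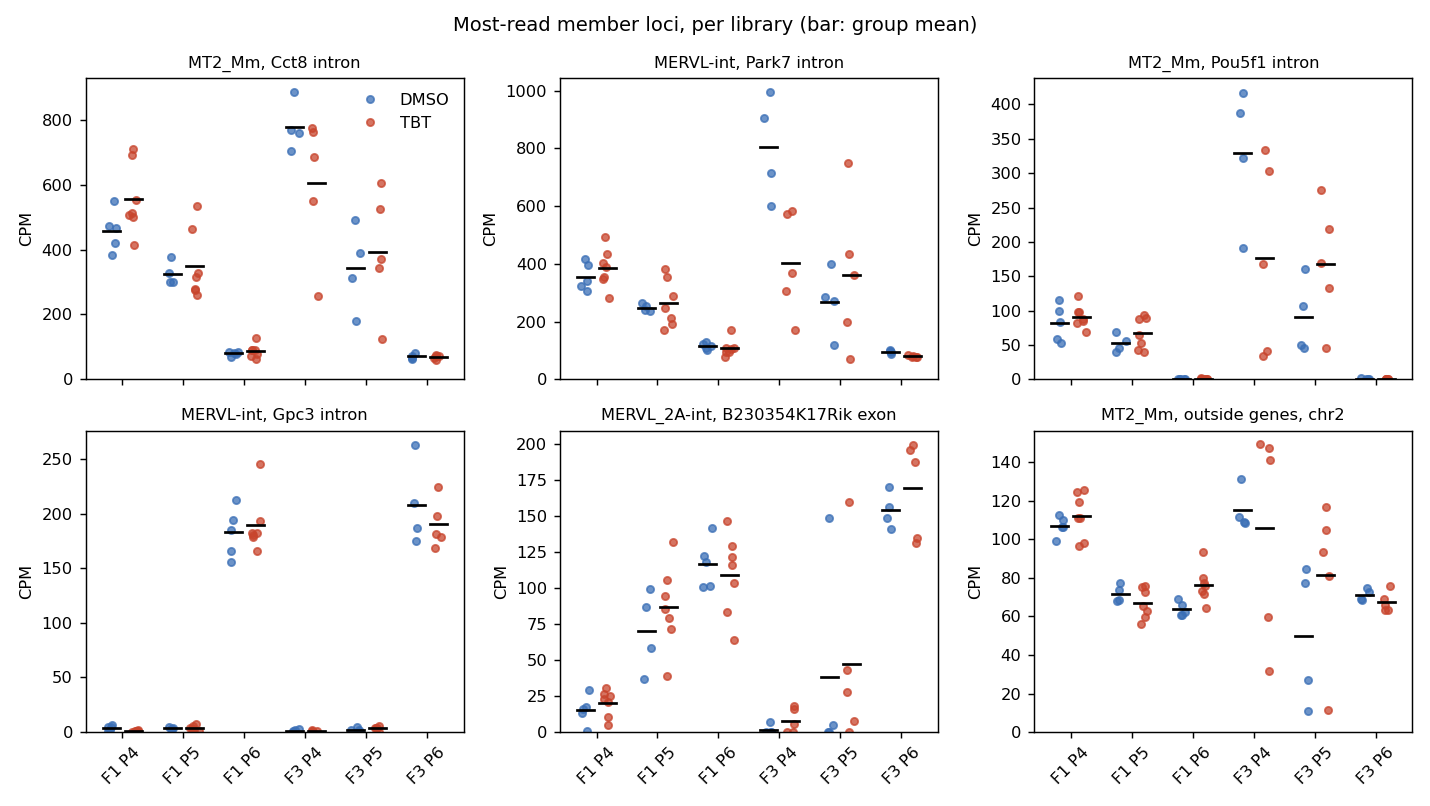
Level in CPM of 6 of the most-read member loci in each library, by population, with DMSO and TBT libraries in separate colours. The Cct8, Park7 and Pou5f1 intron loci are high in P4 and P5 and low in P6, the Gpc3 element shows the reverse, and the chromosome 2 locus outside genes lies between 67.5 and 110 CPM on average in all 6 populations.

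Exposure to TBT was compared with DMSO within each population, first on the total of each species. No total of a member species differed at a false discovery rate (FDR) of 0.05 (limma, adjusted over 660 to 668 species), and no other species did either (0% called in all 6 populations, over all loci and over loci outside genes). In F1 P4, MERVL-int totals were 3091, 3151, 2941, 2787 and 3299 CPM in the 5 DMSO libraries, and in the 7 TBT libraries the lowest was 3075, the median 3293 and the highest 3688. The groups overlapped. TBT was higher by 0.12 on the log2 scale (SE 0.05, limma FDR 0.44), beside a median of 0.06 over all species, and MT2_Mm gave 0.12 (FDR 0.44).

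The other populations showed equally small or scattered differences. In F1 P5, MERVL-int was 2613 ± 153 CPM in DMSO and 2745 ± 280 in TBT (log2 difference 0.07, SE 0.07, limma FDR 1.00). In F1 P6 the means were 2484 ± 69.6 and 2536 ± 83.4 CPM (0.03, SE 0.03, FDR 0.76). In F3 P6 they were 2644 ± 57.2 and 2580 ± 32.0 CPM (-0.04, SE 0.02, FDR 0.56), where the germ cell genes also differed between the groups as given above, and their part was not tested. F3 P4, with 3044 ± 160 CPM in DMSO and 2368 ± 1417 in TBT (-0.67, SE 0.49, FDR 0.51), and F3 P5, with 2175 ± 1077 and 2345 ± 1170 CPM (-0.13, SE 0.72, FDR 1.00), had the widest spread, and neither difference passed the test. In F3 P5 the mean was higher in TBT while the mean of the log2 values was lower, with TBT 5 at 269 CPM. With libraries of at least 2000000 reads only, the log2 differences were 0.16 and 0.22.

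Outside genes, the F1 P6 totals of the 2 exposures had different means, and 2 libraries carried the difference. The 5 DMSO libraries had MERVL-int at 21.3, 26.1, 33.3, 13.6 and 23.5 CPM. Of the 7 TBT libraries, 5 had 12.8 to 35.2 CPM, within the DMSO range or just beside it, and TBT 7 and TBT 8 had 254 and 276 CPM. Those are the 2 libraries with 6.79% and 6.95% of all reads outside genes. In F1 P6 the germ cell genes had 27.9 ± 3.02 CPM in DMSO and 39.7 ± 6.10 in TBT libraries, and the leukocyte genes 28.4 ± 3.80 and 46.7 ± 15.9. The Leydig genes had 241 and 304 CPM and the erythroid genes 120 and 123. The endothelial genes, at 152 and 111 CPM, the Sertoli genes, at 792 and 735, and the peritubular genes, at 316 and 301, went the other way. Their part was not tested.

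The means of 23.6 ± 7.17 and 96.0 ± 116 CPM gave a log2 difference of 1.19 (SE 0.71, limma FDR 0.27), beside a median of 1.21 over all species outside genes. Without TBT 7 and TBT 8 the difference was 0.25 (FDR 0.85) for MERVL-int, -0.04 for MERVL_2A-int and 0.26 for MT2_Mm. In F1 P5, where DMSO libraries had 43.4 to 75.8 CPM and TBT libraries 44.8 to 117, the difference was 0.44 (SE 0.24, limma FDR 0.52) beside a median of 0.26 over all species, and 0.27 without DMSO 48-4. F3 P4 gave 1.28 (SE 0.85, FDR 1.00), which became 0.81 without DMSO 3 and 0.85 without TBT 9. F3 P5 gave -0.86 (SE 0.62, FDR 0.94), which became -0.47 without TBT 5 and -0.37 with libraries of at least 2000000 reads only.

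**Figure D4:**
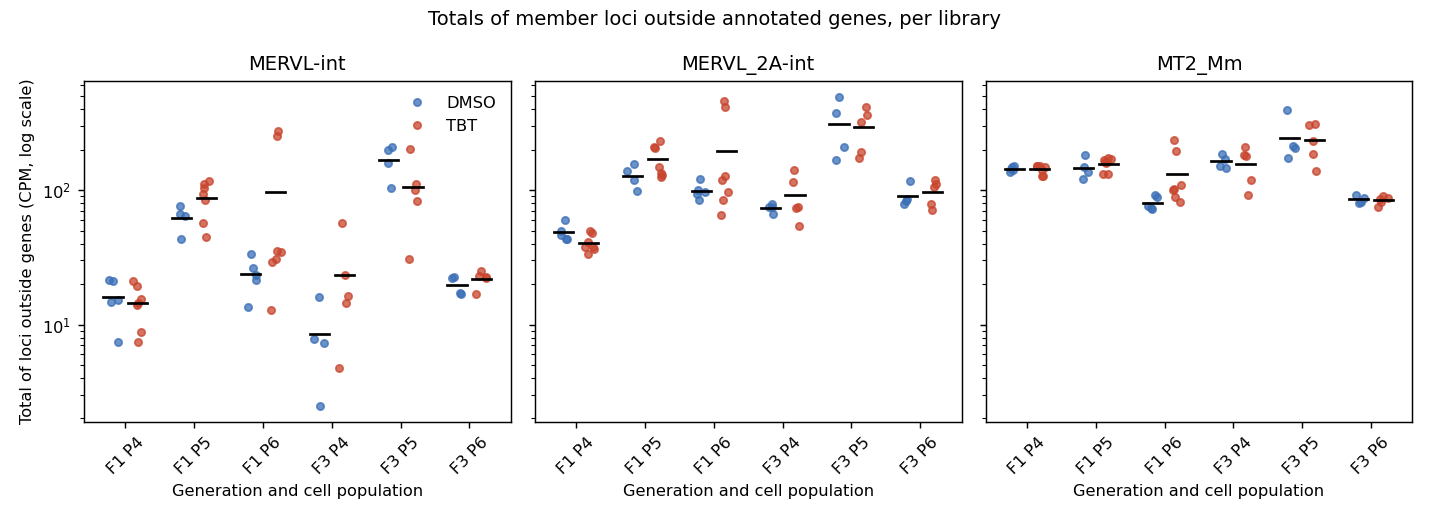
Total of MERVL-int, MERVL_2A-int and MT2_Mm loci outside genes in each library (CPM, log axis), by population, with DMSO libraries in blue, TBT libraries in red and a bar at each group mean. DMSO and TBT libraries overlap in every population, 2 TBT libraries of F1 P6 lie far above the rest, and the internal species are higher in P5 than in P4.

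Locus by locus, no member was called between TBT and DMSO in any population by the same test. The test covered 925, 1170 and 954 members in F1 P4, P5 and P6 and 782, 952 and 1099 in F3, those with a mean of at least 5 reads per library, and 16, 51, 14, 26, 78 and 18 of them lay outside genes. The share of all LTR loci called higher was 0% in F1 P4, 0.0106% in F1 P5 and 0.00341% in F1 P6, and 0%, 0% and 0.02% in F3. The share called lower was 0% except in F3 P6, with 0.0143%. At an unadjusted limma p below 0.05 there were 62, 70, 28, 3, 9 and 85 members (6.7%, 5.98%, 2.94%, 0.384%, 0.945% and 7.73% of those tested, beside 7.09%, 6.89%, 3.68%, 1.65%, 1.01% and 7.96% of all loci), and the lowest FDR among members was 0.58, 0.15, 1.00, 0.87, 1.00 and 0.20. The median log2 difference of the members followed that of all loci: 0.05 beside 0.04 in F1 P4, 0.02 beside 0.03 in F1 P5, -0.07 beside -0.04 in F1 P6, -0.86 beside -0.69 in F3 P4, 0.25 beside 0.15 in F3 P5 and 0.03 beside 0.02 in F3 P6. In F3 P6, leaving out DMSO replicate 4 called 7 members (0.634%, beside 0.0495% of all loci). All 7 were MERVL_2A-int pieces in introns of Abcc5, a transporter gene, with the same or nearly the same reads, so that they amount to 1 observation.

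The likelihood ratio test of edgeR on the recovered reads, the test named in the methods of the study, called members in 4 of the 6 populations. Every member it called averaged less than the filter's 5 reads in the lower of its groups and so passed the filter only through the group where it was high, and these calls are given as a description. In F1 P4 it called 4 lower and 0 higher (background 0.0906% lower and 0.00655% higher), and they were the 4 pieces of the Gpc3 element, which share their reads. The 5 DMSO libraries had 4.64, 1.87, 6.70, 4.43 and 1.37 CPM at this element, and the 7 TBT libraries had from 0 to 2.14 CPM with a median of 0.521. The groups overlapped. The means were 3.80 and 0.706 CPM.

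Somatic marker genes differed between these groups, in both directions. The 16 of 20 listed somatic genes that hold an LTR locus summed to 195 ± 83.1 CPM (114 to 297) in F1 P4 DMSO libraries and 129 ± 22.0 (105 to 161) in TBT libraries, and the 3 Leydig genes, which had the widest gap of the cell types listed, to 90.2 ± 85.2 and 15.8 ± 9.91 CPM. The 4 endothelial genes went the other way without overlap, with 20.9 ± 4.65 CPM (highest 23.8) in DMSO and 36.2 ± 3.93 (lowest 31.2) in TBT libraries, and the 3 leukocyte genes had 7.01 ± 4.97 and 15.6 ± 12.4 CPM. The Sertoli genes gave 24.4 and 18.4, the peritubular genes 26.7 and 19.2 and the erythroid genes 25.5 and 23.8 CPM. The Gpc3 element is itself highest in somatic cells. The part of these cell types in the F1 P4 difference was not tested.

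In F1 P5 that test called 2 members higher and 0 lower (background 0.251% and 0.0679%). The first was the internal part of a full-length element in an intron of Mpv17l, a peroxisomal membrane protein gene (chr16:13908793-13914164), which had reads in 1 of 4 DMSO and 7 of 7 TBT libraries, with means of 0.0598 and 1.83 CPM. The second was the solo LTR chr4:75830493-75830940, printed above. Its DMSO libraries had 1.43, 0, 0 and 1.18 CPM and its TBT libraries 1.43, 2.73, 7.23, 4.95, 1.46, 6.31 and 3.69 CPM. The lowest TBT library lay just below the highest DMSO library. In F3 P5 the same LTR had 0, 0, 10.2 and 2.31 CPM in DMSO and 0, 8.10, 3.53, 17.6 and 11.1 CPM in TBT libraries and was not called. Between F1 P5 DMSO and TBT libraries the Sertoli genes had 50.8 ± 23.4 and 27.3 ± 7.02 CPM, the Leydig genes 41.3 and 28.0 and the erythroid genes 19.3 and 17.4. The endothelial genes had 57.2 and 62.9 CPM, the leukocyte genes 14.6 and 18.3, the peritubular genes 14.2 in each and the germ cell genes 10188 and 11810. Their part was not tested.

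In F1 P6 the test called 1 member higher and 0 lower (background 0.0466% and 0.00227%), a MERVL-int fragment outside genes at chr4:143481914-143483812. It had 8.87 and 11.2 CPM in TBT 7 and TBT 8, 0.771 and 0.525 in TBT 11 and TBT 9, and no read in the other 8 libraries. In F3 P4 and F3 P6 no member was called (background 0.00463% higher and 0% lower, and 0.16% and 0.159%). In F3 P5 it called 5 higher and 9 lower (background 0.6% and 2.43%), of which all 5 higher were MERVL_2A-int loci outside genes, and 6 of the 9 lower had reads in 1 library only.

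The 2 germline fractions were then compared with each other. Over all their loci, the 3 species were slightly lower in P5 than in P4 in F1. MERVL-int in DMSO animals was 3054 ± 197 CPM in P4 and 2613 ± 153 in P5, a log2 difference of -0.22 (SE 0.07, limma FDR 0.0168). MERVL_2A-int gave -0.20 (FDR 0.0154) and MT2_Mm -0.23 (FDR 0.0174), and in TBT animals the 3 values were -0.28 (FDR 0.000188), -0.18 (FDR 0.00187) and -0.30 (FDR 0.000142).

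The median over all species was -0.07 in both. Of 664 species, 13.1% were called higher and 22% lower in P5 in DMSO animals, and 20.8% and 37.3% in TBT animals. The DMSO differences kept their direction without any 1 library, but all 3 calls were lost without P5 43-5 (-0.20, -0.18 and -0.22, limma FDR 0.0562, 0.0514 and 0.0514), those of MERVL-int and MT2_Mm without P4 48-4 (-0.20 each, FDR 0.0510 and 0.0547), and that of MT2_Mm without P5 44-1 (-0.22, FDR 0.0504). With median-ratio scaling the 3 differences were smaller and none was called (-0.09, -0.06 and -0.09, limma FDR 0.26, 0.38 and 0.24). In F3 the differences were -0.64, -0.57 and -0.58 in DMSO and -0.10, -0.05 and -0.12 in TBT animals and none was called (background 1.21% higher and 0% lower in each), and median-ratio scaling turned all 6 to positive values.

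Outside genes the direction was the opposite for the internal sequences. In F1 DMSO animals, MERVL-int outside genes had 21.2, 15.2, 21.3, 7.39 and 14.6 CPM in the 5 P4 libraries and 66.5, 64.0, 75.8 and 43.4 in the 4 P5 libraries. In TBT animals the 7 P4 libraries ranged from 7.42 to 20.9 CPM with a median of 14.5, and the 7 P5 libraries from 44.8 to 117 with a median of 94.0. Every P5 library lay above every P4 library in both groups. The log2 difference was 2.02 (SE 0.32, limma FDR 4.98e-06) in DMSO and 2.59 (SE 0.26, FDR 8.27e-11) in TBT animals.

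MERVL_2A-int rose by 1.38 (FDR 1.78e-06) and 2.02 (FDR 1.04e-12). MT2_Mm showed 0.01 (FDR 0.97) and 0.13 (FDR 0.30), but without the chromosome 2 locus it was higher in P5 by 0.96 (FDR 0.00039) and 1.52 (FDR 2.29e-09). So all 3 species rose outside genes once that locus was set aside. This was the direction of nearly every LTR species: 75.6% of 589 species were called higher in P5 and 0.34% lower in DMSO animals, and 92.7% and 0.17% in TBT animals, with medians of 1.12 and 1.46. Among them MERVL-int ranked 58th and 44th from the top, and IAPEz-int, at 3.503 and 4.50, lay above it.

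In F3 the internal sequences were again higher in P5. MERVL-int outside genes had 7.35, 7.82, 2.46 and 16.1 CPM in the 4 P4 DMSO libraries and 209, 200, 158 and 104 in the 4 P5 DMSO libraries. In TBT animals P4 had 4.74, 14.4, 16.4, 23.5 and 57.1 CPM and P5 30.6, 82.2, 100, 110 and 202. The groups were separate in DMSO animals, and in TBT animals the highest P4 library, TBT 9, exceeded the lowest P5 library, TBT 5, both of low depth.

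The log2 differences were 4.48 (SE 0.77, limma FDR 0.000193) in DMSO and 2.35 (SE 0.69, FDR 0.0203) in TBT animals for MERVL-int, and 1.95 (FDR 0.00615) and 1.68 (FDR 0.0132) for MERVL_2A-int. The call of MERVL-int in TBT animals was lost without P4 TBT 5, P5 TBT 9 or P5 TBT 8 (1.89, 2.05 and 2.27, limma FDR 0.0533, 0.0878 and 0.0594), and that of MERVL_2A-int without P5 TBT 9 (1.53, FDR 0.0569). MT2_Mm gave 0.52 (FDR 0.37) and 0.59 (FDR 0.30), and 1.85 (FDR 0.0124) and 1.59 (FDR 0.0245) without the chromosome 2 locus. With median-ratio scaling, MT2_Mm was called higher in P5 in both exposures with that locus included. The background was 33.7% of 603 species higher and 0% lower in DMSO animals and 17.2% and 0% in TBT animals, with medians of 1.58 and 1.19. MERVL-int ranked 8th and 77th.

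**Figure D5:**
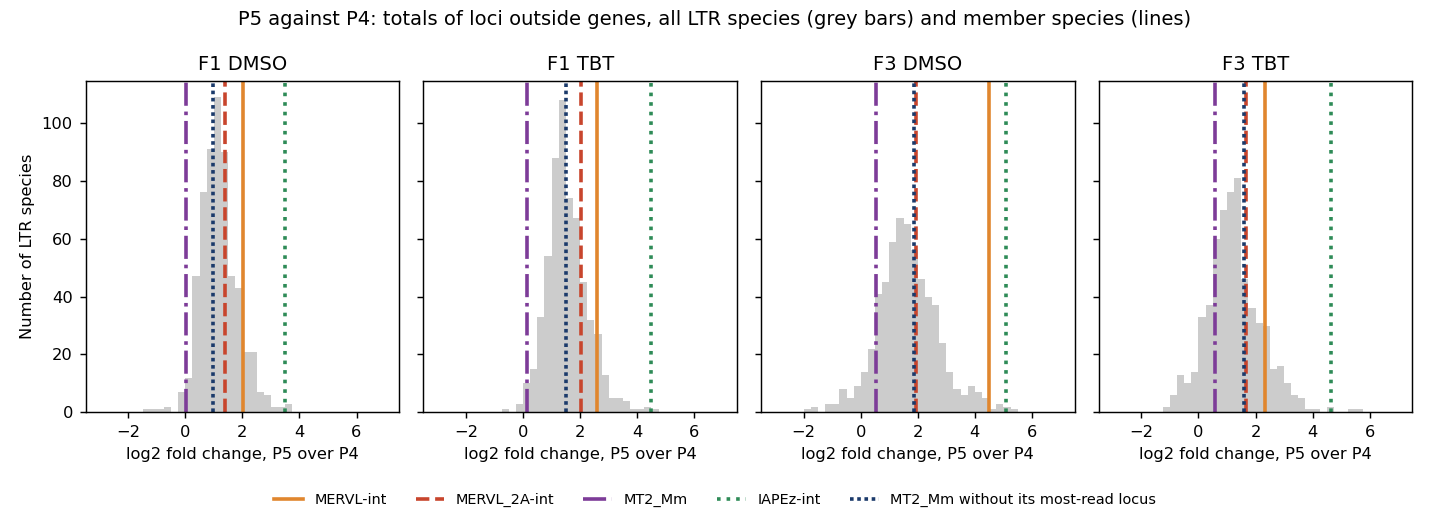
Histograms of the log2 difference P5 minus P4 of every LTR species outside genes (grey), for F1 and F3 and for DMSO and TBT animals, with lines at MERVL-int, MERVL_2A-int, MT2_Mm, MT2_Mm without its most-read locus, and IAPEz-int. The histograms lie mostly above 0, with medians from 1.12 to 1.58, and MERVL-int lies to the right of the median in all 4 panels.

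Whether exposure changed the contrast was tested as an interaction, and no species was called (0% higher and 0% lower in F1 and F3, over all loci and outside genes). The lowest p values of a member total were 0.0176 for MERVL_2A-int outside genes in F1 (0.65, limma FDR 0.36) and 0.0453 for MERVL-int outside genes in F3 (-2.14, limma FDR 0.99). The share of all reads outside genes moved with the contrast, with medians of 2.19% in P4 and 5.29% in P5 of F1 and 3.22% and 11.2% in F3. Marker genes of other cell types moved too, in both directions: from P4 to P5 the 4 endothelial genes went from 20.9 ± 4.65 CPM (highest 23.8) to 57.2 ± 23.2 (lowest 26.8) in F1 DMSO and from 36.2 ± 3.93 to 62.9 ± 18.8 CPM in F1 TBT animals, and the Sertoli genes from 24.4 to 50.8 and from 18.4 to 27.3 CPM. The Leydig genes went from 90.2 to 41.3 CPM in F1 DMSO and from 15.8 to 28.0 in F1 TBT animals, the leukocyte genes from 7.01 to 14.6 and from 15.6 to 18.3, the peritubular genes from 26.7 to 14.2 and from 19.2 to 14.2, and the erythroid genes from 25.5 to 19.3 and from 23.8 to 17.4 CPM. In F3 the endothelial genes had 32.8 ± 35.8 CPM in P4 and 54.6 ± 38.0 in P5 of DMSO animals and 19.7 ± 18.2 and 54.8 ± 37.9 in TBT animals, with overlapping ranges. The F3 erythroid genes had 36.7 ± 8.69 and 17.9 ± 8.50 CPM in DMSO and 34.8 ± 7.63 and 19.9 ± 12.5 in TBT animals, the peritubular genes 15.998 and 12.3 and 18.7 and 10.8, the Sertoli genes 7.68 and 10.6 and 7.92 and 21.4, the Leydig genes 17.5 and 4.92 and 5.87 and 14.2, and the leukocyte genes 6.81 and 22.7 and 12.5 and 16.98 CPM. The summed somatic genes averaged 195 and 197 CPM in F1 DMSO, 129 and 168 in F1 TBT, 117 and 123 in F3 DMSO and 99.5 and 138 in F3 TBT animals, while the germ cell genes averaged 14809 and 10188 CPM in F1 DMSO, 17543 and 11810 in F1 TBT, 12739 and 7537 in F3 DMSO and 10530 and 7970 in F3 TBT animals. The part of these in the member totals was not tested.

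At single loci, 1016 members were tested in F1. In DMSO animals 75 were higher and 77 lower in P5 (7.38% and 7.58%, beside a background of 7.53% and 5.08% of all loci), and in TBT animals 129 and 165 (12.7% and 16.2%, beside 13.9% and 15.3%). The DMSO count of 152 fell to 95 without P5 43-4 and to 99 without P5 44-1 (9.41% and 9.8%, beside 9.67% and 8.25% of all loci). The groups did not overlap at 54 of the members called higher and 41 of those called lower in DMSO animals (5.31% and 4.04%, beside 5.49% and 3.53% of all loci) and at 50 and 22 in TBT animals (4.92% and 2.17%, beside 4.72% and 2.74%). These shares were close to those of all loci. Of the members called higher, 23 in DMSO and 49 in TBT animals averaged less than the filter's 5 reads in P4 and so passed it only through P5, and 0 of those called lower did so through P4. The median log2 difference was -0.16 in both, beside -0.10 over all loci. Of 20 members tested outside genes, 1 was higher and 1 lower in DMSO animals (background outside genes 18.4% and 1.29%), and 6 and 1 in TBT animals (37.4% and 2.04%). In F3, 0 of 908 members were called in either group (background 0.00102% higher and 0% lower in DMSO, 0.00306% and 0% in TBT animals, and outside genes 0.00745% and 0%, and 0.0224% and 0%). With the library number shared by P4 and P5 as a block, 6 were called in DMSO animals (0.661%, beside 1.29% of all loci). In TBT animals 1 was called (0.11%, beside 0.228%).

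The named loci with higher values in P5 were solo MT2_Mm LTRs, and all 3 passed the filter only through P5, so their values are a description with no test. The one in an intron of Zfp936, a zinc finger gene (chr7:43179769-43180261), had no read in any of the 12 F1 P4 libraries, 1.67, 4.67, 3.96 and 1.18 CPM in the P5 DMSO libraries and 2.39 to 5.84 CPM in the 7 P5 TBT libraries. In F3 it had 0, 0, 0 and 0 CPM in P4 DMSO and 7.39, 0, 21.9 and 7.62 CPM in P5 DMSO libraries. A solo LTR in an intron of Sys1, a Golgi membrane protein gene that overlaps Gm20458 there (chr2:164477000-164477484), averaged 0.137 CPM in P4 and 2.53 in P5 of DMSO animals. The solo LTR at chr4:75830493-75830940 averaged 0.206 CPM in P4 and 3.97 in P5 of TBT animals.

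The named decreases were at loci above the filter in both fractions. In DMSO animals both pieces named lie in 1 element in an intron of Csnk2a1, the catalytic subunit of casein kinase 2: the LTR at chr2:152263362-152263853 averaged 7.59 CPM in P4 and 4.25 in P5 (-0.88, limma FDR 0.0443), and the 38-base internal piece at chr2:152269269-152269306 gave 7.54 and 4.25 CPM (-0.87, FDR 0.0483). In TBT animals the chromosome 2 locus outside genes averaged 112 CPM in P4 and 66.8 in P5 (-0.75, FDR 1.38e-06), and a solo LTR in an exon of Ppil4, a splicing-associated isomerase gene (chr10:7795944-7796383), 34.2 and 22.1 CPM (-0.63, FDR 0.000283).

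MBD-seq counts captured methylated fragments per 100-base window. The deposited windows cover only part of the genome, and few of them overlapped the loci. In F1 P6, 525 of 154773 windows (0.339%) overlapped 385 member loci, 100 windows touching MT2_Mm and 433 touching internal sequence, and in F3 P6, 476 of 164382 (0.29%) overlapped 374 loci. Members held 0.198% to 0.216% of the counts of a library in F1 and 0.140% to 0.160% in F3, with totals of 701493 to 1913353 and 1105120 to 1556376 counts. The shares of DMSO and TBT libraries overlapped in both generations. After the filter on low counts, 53 and 59 member windows were tested.

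In F1, 1 member window was lower and 0 higher in TBT than in DMSO (edgeR quasi-likelihood test, background 0.026% lower and 0.00579% higher), and in F3 none was called (background 0% and 0%). The F1 window, chr9:56223401-56223500, overlaps the MERVL-int fragment chr9:56223490-56223571 by 11 bases. The window holds no CG dinucleotide, as do 53% of the deposited windows of F1, and with 100 bases added on either side it holds 4. It had 69, 53 and 69 counts in the DMSO libraries (73.5, 75.6 and 74.5 counts per 1000000) and 79, 77, 35 and 76 in the TBT libraries (52.7, 45.4, 39.4 and 39.7 counts per 1000000). The groups did not overlap on that scale, and the log2 difference was -0.75 (edgeR FDR 0.01005). The call was lost with DESeq2, without the filter, and without DMSO 1, 2 or 3 or TBT 7. At an unadjusted p below 0.05 there were 5 member windows in F1 and 2 in F3 (9.43% and 3.39%, beside 5.01% and 5.19% of all windows), and the median log2 difference over member windows was -0.10 in F1 and -0.04 in F3, beside 0.00 and 0.01 over all windows.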

How the data were processed

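Polyadenylated RNA of FACS-sorted fetal testis cells was read at annotated LTR loci, and methylated DNA of P6 in windows of 100 bases. Per the study's methods, the authors trimmed RNA reads with Trim Galore, aligned them with STAR to mm10, counted them at RepeatMasker LTR loci with a modified ERVmap, and deposited TMM-scaled values (edgeR) per locus, a signal per 1000000 reads. How reads fitting several copies were placed and whether strand was used are not given in the sources used here. For MBD-seq the authors deposited raw counts per window, beside a CpG column not used as a measurement.

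Every RNA value was a whole multiple (within 0.01) of what 1 read is worth in its library (100% of values), so reads were recovered, and levels are the deposited values, called CPM. The main test was limma on log2(CPM + 1 read's worth) over all LTR loci that averaged 5 or more such units, with Benjamini-Hochberg adjustment and a threshold of 0.05. Folds on this scale understate those of low loci. Species totals were tested likewise over all species, and MBD counts with edgeR's quasi-likelihood test. The germline and somatic tables of F1 and F3 were normalised separately and not tested against each other.

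Full-length elements span 5500 to 7500 bases and solo LTRs 400 to 600. Place, gene and sequence came from the GRCm38 reference. Named loci are, per comparison, the 2 higher and 2 lower called members with the largest change and no overlap between groups, and per population the 5 with the most reads. The outside-gene loci and those called by the edgeR likelihood ratio test were named after their values were seen. The members and lists were chosen with earlier results of these data known. Alternatives outside genes for P5 against P4, without libraries of under 2000000 reads and without TBT 7 and 8 were added after seeing the data. The code was tested on simulated data. R 4.3.3, limma 3.58.1, edgeR 4.0.16, DESeq2 1.42.0, Python 3.11.15 and bedtools 2.31.1 were used.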

Additional observations from a re-analysis of the deposited data

Results flagged for a closer look

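In groups of 4 to 10 libraries, a total was singled out when the gap from the lowest or highest library to its nearest neighbour took up more of the group's range than Dixon's 95% critical value. Of 72 groups tested 5 were singled out, and chance alone gives about 1 in 20, or 3.6.

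Library 5 of F3 P5 TBT accounted for 3 of the 5. Its totals were 269 CPM for MERVL-int (nearest 2688), 700.3 for MERVL_2A-int (nearest 5299) and 649.6 for MT2_Mm (nearest 3072). It is the shallowest library, with 246520 reads, of which 31.1% lay outside genes.

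The other two were small gaps within tight groups. In F3 P6 DMSO, library 3 had the highest MERVL-int total at 2730 CPM (nearest 2620), and in F1 P5 DMSO, library 48-4 had the highest MT2_Mm total at 2931 CPM (nearest 2674).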

How the results depend on the processing

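The alternatives changed the test, the scaling, the value added before taking logs, the filter, the loci summed, the pairing and the libraries, 1 at a time. Of the planned ones, 207 gave the same direction and side of the threshold as reported, 42 turned the direction, 8 passed where the reported value did not and 11 did the reverse. Of those chosen after seeing the data, 79, 6, 8 and 0 did. Where no cause is named below, the cause was not tested.

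Counts of members called between TBT and DMSO were 0 by limma in every population. They became 4, 2, 1 and 14 in F1 P4, F1 P5, F1 P6 and F3 P5 by the edgeR likelihood ratio test and 3 in F1 P5 without a filter on low values, and stayed 0 by the edgeR quasi-likelihood test. The share of all loci called without that filter is not given here, so the 3 are no result about the members in particular. Leaving out 1 library gave 0 to 7 in F3 P6, the 7 being pieces in Abcc5 that share reads. The MBD call of 1 window became 0 by DESeq2 and 0 without a filter, and was 0 to 1 over libraries left out.

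Totals between TBT and DMSO, none of them called, turned direction as follows. With the same total for every library, MERVL_2A-int became -0.00977 in F1 P4 and -0.00417 in F1 P6, MT2_Mm -0.000941 in F1 P6, and in F3 P5 MERVL-int, MERVL_2A-int and MT2_Mm became 0.0047, 0.048 and 0.10. With loci of at least 5 reads on average, the 3 became -0.024, -0.026 and -0.0090 in F1 P6. With loci outside genes, they became -0.14, -0.27 and -0.015 in F1 P4, MERVL-int and MERVL_2A-int 1.28 and 0.23 in F3 P4, and MERVL-int 0.15 in F3 P6. With libraries of at least 2000000 reads, the 3 became 0.16, 0.11 and 0.15 in F3 P4 and 0.22, 0.27 and 0.18 in F3 P5. The edgeR quasi-likelihood test gave 0.094, 0.15 and 0.079 in F3 P5, and median-ratio scaling -0.0019 for MERVL_2A-int in F3 P6. Over libraries left out, F3 P5 ranged from -0.46 to 0.55 for MERVL-int, -0.33 to 0.52 for MERVL_2A-int and -0.29 to 0.43 for MT2_Mm.

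P5 minus P4 over all loci turned when only loci outside genes were summed: for MERVL-int, MERVL_2A-int and MT2_Mm, to 2.02, 1.38 and 0.0069 in F1 DMSO, 2.59, 2.02 and 0.13 in F1 TBT, 4.48, 1.95 and 0.52 in F3 DMSO, and 2.35, 1.68 and 0.59 in F3 TBT. In F1 DMSO the 3 calls were lost with median-ratio scaling (-0.088, -0.060 and -0.095) and by the edgeR quasi-likelihood test (-0.12, -0.092 and -0.13). In F3, median-ratio scaling gave 0.15, 0.22 and 0.21 in DMSO and 0.29, 0.34 and 0.27 in TBT animals, the same total for every library 0.089, 0.13 and 0.069 in TBT animals, and the edgeR quasi-likelihood test 0.0081 for MERVL-int and 0.038 for MERVL_2A-int in TBT animals. Over libraries left out, F1 DMSO ranged from -0.26 to -0.20 for MERVL-int, -0.22 to -0.18 for MERVL_2A-int and -0.27 to -0.20 for MT2_Mm, and F3 TBT from -0.50 to 0.59, -0.43 to 0.55 and -0.42 to 0.35. The interaction of MERVL_2A-int in F1 ranged from -0.026 to 0.035.

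Outside genes, MT2_Mm was called in P5 without its most-read locus (0.96, 1.52, 1.85 and 1.59 in F1 DMSO, F1 TBT, F3 DMSO and F3 TBT), with the same total for every library in F1 TBT (0.30), and with median-ratio scaling in F3 (1.30 and 0.98). Leaving out 1 library gave -0.10 to 0.096 for MT2_Mm in F1 DMSO, and in F3 TBT 1.89 to 2.77 for MERVL-int and 1.51 to 1.86 for MERVL_2A-int.

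P4 and P5 libraries share numbers in the labels, which do not explain them. The correlation within a number, estimated over all loci tested, was 0.174 in F1 and 0.337 in F3. Libraries of the same number did not deviate together throughout (correlations of -0.0055 to 0.278 in F1 and -0.088 to 0.46 in F3), so the number was not taken as a pair in the main test. With it as a replicate block, members called between P5 and P4 numbered 197 in F1 DMSO, 348 in F1 TBT, 6 in F3 DMSO and 1 in F3 TBT, beside 152, 294, 0 and 0 without it, and the share of all loci called rose likewise (17.9%, 35.1%, 1.29% and 0.228%, beside 12.6%, 29.2%, 0.00102% and 0.00306%). The 3 totals over all loci in F1 DMSO gave -0.24, -0.20 and -0.24 with the block (limma FDR 0.000348, 0.000483 and 0.000388). Over libraries left out, members called without the block ranged from 95 (9.41%, beside 9.67% of all loci) to 161 in F1 DMSO and from 0 to 1 in each F3 group. In F3 DMSO they became 2 with median-ratio scaling and 11 with libraries of at least 2000000 reads. Apart from the 95, the share of all loci called under the same settings is not given here. These counts are thus no result about the members in particular.

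Outside genes, 14 to 78 of 6124 loci passed the filter in the tests between exposures, and the others were too low to test. In introns, RNA of the gene and of the repeat cannot be told apart, and the placing of reads that fit several copies is not given, so values of single full-length elements are uncertain.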

Other observations

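Beside the chromosome 2 locus, a few fragments outside genes recurred among the most read. A MERVL-int fragment of 385 bases at chr12:99629511-99629895 averaged 3.94 ± 3.08 CPM in F1 P4 (n = 12), 9.24 ± 4.83 in F1 P5 (n = 11) and 7.94 ± 9.72 in F3 P5 (n = 9). A MERVL_2A-int locus of 490 bases at chr7:71709618-71710107 averaged 6.33 ± 2.17 CPM in F1 P5 and 12.4 ± 2.98 in F3 P6, and another of 406 bases at chr7:62459546-62459951 averaged 11.3 ± 3.54 in F1 P6 and 9.65 ± 2.74 in F3 P6.

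Other loci varied widely between libraries. A MERVL_2A-int locus of 4979 bases at chr13:59843322-59848300 averaged 12.3 ± 13.7 CPM in F3 P5, with libraries from 0 to 38.4. The solo LTR at chr3:17110527-17110950 had 207 reads over the 9 F3 P4 libraries, 5.61 ± 5.80 CPM, with libraries from 0 to 14.7.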
